A study of Rattus norvegicus with 10 samples.

Results

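The genes described here present antigen on major histocompatibility complex (MHC) class II in the rat spinal cord, and were measured after 7 days of intrathecal morphine or saline. They are the 8 genes RT1-Bb, RT1-Ba, RT1-Da, RT1-Db1, RT1-DMa, RT1-DMb, Cd74 and Ciita, chosen by name, and each was found through the RefSeq mRNA accession of its probe. Each was measured by 1 probe with 1 spot per array, so the 8 genes are 8 of the 24684 probes on the array and 8 of the 20284 RNAs that could be tested. RT1-Bb had the largest fold in the study's own list of changed mRNAs, which was drawn from the same rats. The study also measured RT1-Bb by quantitative PCR, where the change went the same way but was not significant. The question was whether its low and high states extend to the genes that it works with.

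Total RNA came from the lumbar enlargement, the thickened lower part of the spinal cord, of male Sprague Dawley rats weighing 240 to 260 g. The 5 rats of the morphine tolerance (MT) group, numbered 1 to 5, received 10 μg of morphine in 10 μl into the fluid around the cord, 2 times a day for 7 days. The 5 rats of the normal saline (NS) group, numbered 6 to 10, received 10 μl of saline on the same schedule. On the following day the rats were anesthetized for tissue collection 1 hour after a further morning injection of morphine or saline. Each rat gave 1 one-colour array.

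Class II molecules are pairs of an α and a β chain that carry fragments of engulfed proteins to the surface of antigen-presenting cells, where CD4+ T cells read them. The pairs assemble on the invariant chain, which is cut down inside endosomes, and its last fragment is then exchanged for a peptide with the help of the DM pair. In the spinal cord class II is made mainly by microglia, by macrophages of the vessels and meninges and by the few lymphoid and dendritic cells there. The transactivator CIITA switches these genes on together through a shared promoter module, and MHC genes vary in sequence between rats of an outbred stock such as Sprague Dawley.

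The module was looked for in the reference promoters, where the letters searched were found in some genes of the set and not in others. RefSeq promoter sequences of assembly GRCr8 were at hand for 6 of the 8 genes, and RT1-DMb and Ciita were not in that table. The 250 bases before each start were searched on both strands for the core of the X box (ACNGATG), the Y box (TGATTGG) and an X2 site (TGACGTCA), whose matches in these genes do not overlap. The X core was present in 8.54% of all 33469 promoters, the Y box in 6.42% and the X2 site in 1.59%. An X core followed 15 to 30 bases later by a Y box, both on the gene's strand, was present in 8 promoters, or 0.0239%. Of these 8, 4 were genes of the set, namely RT1-Bb, RT1-Da, RT1-Db1 and RT1-DMa, and the others were RT1-Db2, RT1-DOb, Hsd17b7 and Tdo2. The windows below run 5′ to 3′ on the gene's strand and hold the 40 bases before the Y box and 5 after it, with the matches in capitals. They are the reference rat's sequence, not that of the rats studied, and a match is a description of letters only.
RT1-Bb (chr20:4604170-4604221, minus strand): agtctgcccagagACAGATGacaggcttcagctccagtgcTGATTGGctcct
RT1-Ba (chr20:4576972-4577023, plus strand): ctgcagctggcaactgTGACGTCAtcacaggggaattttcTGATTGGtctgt
RT1-Da (chr20:4515324-4515375, plus strand): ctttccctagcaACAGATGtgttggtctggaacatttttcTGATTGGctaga
RT1-Db1 (chr20:4560233-4560284, minus strand): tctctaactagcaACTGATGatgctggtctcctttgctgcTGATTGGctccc
RT1-DMa (chr20:4712390-4712441, minus strand): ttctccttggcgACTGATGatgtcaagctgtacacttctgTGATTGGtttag
The gap between the 2 boxes was 20 bases in RT1-Bb and RT1-Db1 and 21 bases in RT1-Da and RT1-DMa. RT1-Ba held the Y box and an X2 site without these letters of the X core, and none of the 3 motifs was found as spelled in the window of Cd74. The Y box began between 45 bases (RT1-Ba) and 82 bases (RT1-Db1) before the start. RT1-Bb had the same pair of boxes in the reference as RT1-Da and RT1-Db1, and the promoters of the rats studied were not read.

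The values are log2 intensities after quantile normalization, which gives every array the same distribution. A probe's level depends on its own sequence, so levels are compared between rats and not between genes. A spot is called well above background by the scanner's software, and this held for 81.1% to 83.9% of the spots on the MT arrays and for 58.6% to 79.6% on the NS arrays. Arrays with the same scan time were taken as 1 slide, and these were MT rats 1, 3, 4 and 5 (slide 1), MT rat 2 with NS rats 6, 7 and 10 (slide 2) and NS rats 8 and 9 (slide 3), so group and slide are largely confounded. Markers of the tissue were present, and all 18 RNAs of the glial marker list and 10 of the 11 neuronal list were above background on all 10 arrays. Because the tissue was taken whole, fewer cells of a type and less RNA per cell cannot be told apart.

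RT1-Bb, the β chain of the RT1-B molecule, was near the floor of the array in 2 NS rats and high in every other rat. Its log2 intensities were 12.14, 11.40, 12.34, 12.002 and 9.86 in MT rats 1 to 5. In NS rats 6 to 10 they were 1.24, 9.98, 1.80, 9.11 and 9.98. NS rats 6 and 8 were not well above background, while MT rats 1 to 4 lay above every NS rat and MT rat 5 lay below NS rats 7 and 10. Before normalization the spots of rats 6 and 8 read 3.14 and 2.22, against 297 in rat 9, 927 in rat 10 and 1096 in rat 7. The MT spots read between 954 in rat 5 and 5275 in rat 4. The 2 low rats sat on different slides, rat 6 on slide 2 and rat 8 on slide 3. Whether the 1 probe of RT1-Bb matched each rat's own sequence of this gene was not tested.

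The group means of RT1-Bb were 11.55 ± 1.01 in MT and 6.42 ± 4.49 in NS (SD, n = 5), a log2 fold change of 5.13 (standard error, SE, 1.85) or 34.9-fold. With limma, the linear model with moderated variances that was fitted over all RNAs, the unadjusted p was 0.0196 and the adjusted p 0.228, with a 95% interval from 1.01 to 9.24. The exact two-sided permutation test gave p = 0.0238, where 0.00794 is the smallest that 5 against 5 allows. It moved rats freely across slides, so the rats may not be exchangeable and this p value can be too small. Set to the dimmest signal that was still well above background on their arrays, 3.27 for rat 6 and 4.64 for rat 8, the 2 low values gave a log2 fold change of 4.15 (SE 1.34, adjusted p = 0.190), an alternative chosen after seeing the data. Spread within the groups was the largest of all 20221 RNAs with a value on every array, a residual SD of 3.26 against a median of 0.21. Within slide 2, where MT rat 2 can be set against NS rats 6, 7 and 10, the log2 fold change was 4.33 (SE 4.17, adjusted p = 1.00).

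**Figure D1:**
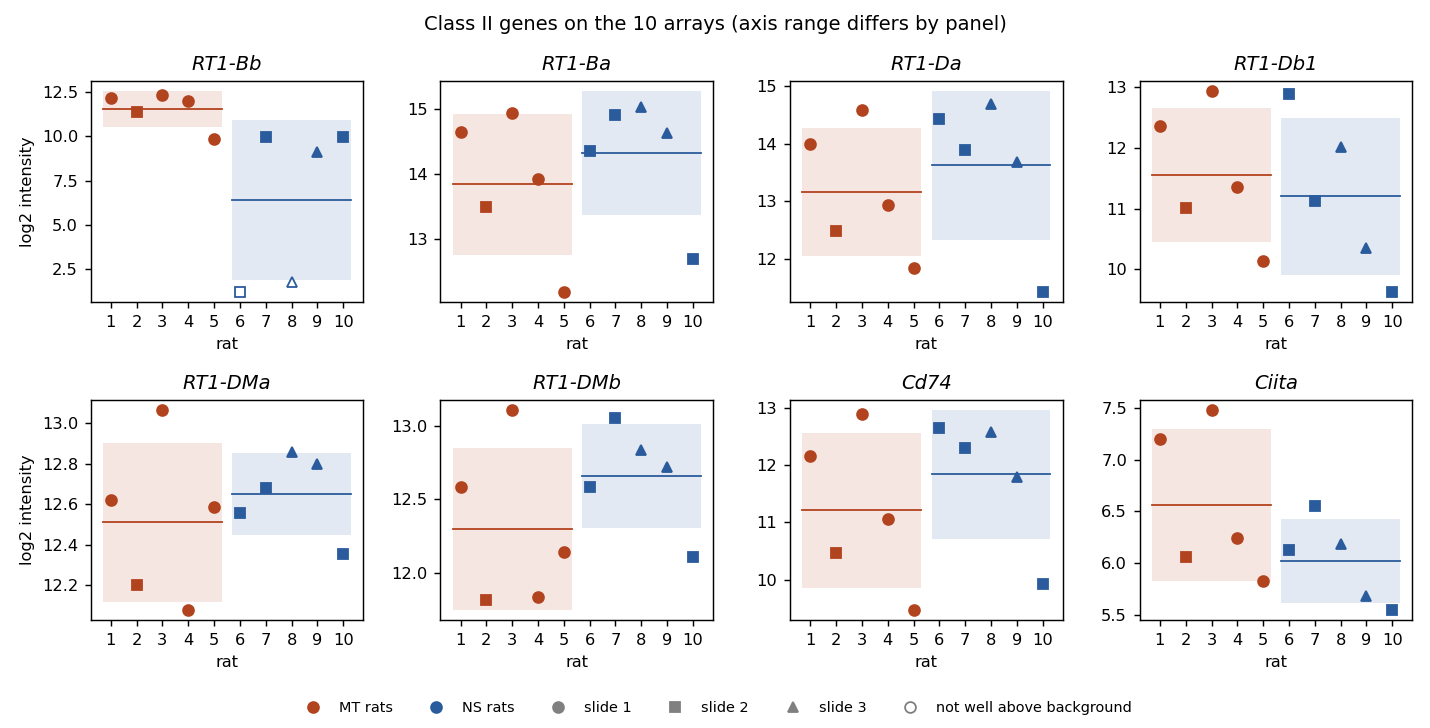
Log2 intensity of the 8 class II genes in each of the 10 rats, with MT rats in red, NS rats in blue and the marker shape giving the slide. Lines are group means and shaded bands 1 SD (n = 5). RT1-Bb has 2 open points near the floor, NS rats 6 and 8, and in no other panel do these rats stand at the bottom.

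The states of RT1-Bb did not extend to its partner. RT1-Ba encodes the α chain that pairs with the RT1-Bb product and is the next gene on the chromosome. Its log2 intensities were 14.65, 13.49, 14.95, 13.93 and 12.18 in MT rats 1 to 5 and 14.36, 14.91, 15.04, 14.64 and 12.69 in NS rats 6 to 10. Rat 8, at the floor for RT1-Bb, had the highest RT1-Ba of all 10 rats, and rat 6 lay close to the median of 14.50. The low rats for RT1-Ba were MT rat 5 and NS rat 10, and the groups overlapped across most of their range. The log2 fold change was -0.49 (SE 0.58, adjusted p = 0.699).

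The RT1-D molecule gave the same picture. RT1-Da, its α chain, was at 13.99, 12.48, 14.58, 12.93 and 11.84 in the MT rats and at 14.42, 13.90, 14.69, 13.68 and 11.43 in the NS rats. RT1-Db1, its β chain, was at 12.35, 11.001, 12.93, 11.35 and 10.13 in the MT rats and at 12.87, 11.13, 12.01, 10.35 and 9.63 in the NS rats. NS rats 6 and 8 were the 2 highest of their group for both chains, and MT rat 5 and NS rat 10 were the lowest of theirs. The log2 fold change was -0.46 (SE 0.68, adjusted p = 0.764) for RT1-Da and 0.35 (SE 0.68, adjusted p = 0.819) for RT1-Db1. RT1-Db1 turned negative within slide 2 (-0.21, SE 1.34) and without NS rat 10 (-0.04), so its direction is not settled. The probes were named by accession, their letters were not used here, and RT1-Db2, a close relative of RT1-Db1, may share signal with it. The probe of RT1-Db2 itself was well above background on 1 of the 10 arrays, and shared signal was not tested.

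Cd74, the invariant chain on which class II pairs assemble, varied most between rats among the genes other than RT1-Bb. It was at 12.16, 10.47, 12.90, 11.05 and 9.46 in the MT rats and at 12.64, 12.30, 12.57, 11.79 and 9.92 in the NS rats. The highest rat, MT 3, exceeded the lowest, MT 5, by 10.8-fold, and both belonged to the same group and the same slide. The means were 11.21 ± 1.36 in MT and 11.85 ± 1.13 in NS (SD, n = 5). The log2 fold change of -0.64 (SE 0.71, adjusted p = 0.677) had a 95% interval from -2.22 to 0.94, which spans a fall to 0.215-fold and a rise of 1.92-fold.

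The DM pair, which loads peptides, was steadier. RT1-DMa was at 12.62, 12.20, 13.07, 12.08 and 12.59 in the MT rats and at 12.56, 12.68, 12.86, 12.80 and 12.36 in the NS rats. RT1-DMb was at 12.59, 11.81, 13.11, 11.83 and 12.14 in the MT rats and at 12.58, 13.05, 12.84, 12.72 and 12.11 in the NS rats. The span from the lowest to the highest rat was 1.99-fold for RT1-DMa and 2.46-fold for RT1-DMb, against 7.25-fold for RT1-Ba, 9.56-fold for RT1-Da and 9.81-fold for RT1-Db1. MT rat 3 was highest for both DM chains, and the groups overlapped. The log2 fold change was -0.14 (SE 0.18, adjusted p = 0.727) for RT1-DMa and -0.36 (SE 0.27, adjusted p = 0.522) for RT1-DMb.

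Ciita, the transactivator, was at 7.20, 6.06, 7.48, 6.24 and 5.83 in the MT rats and at 6.12, 6.55, 6.19, 5.68 and 5.54 in the NS rats. MT rats 1 and 3 lay above every NS rat, and the other MT rats lay among them. The log2 fold change of 0.55 (SE 0.34, adjusted p = 0.447) fell to -0.01 (SE 0.43) within slide 2, so no direction can be given. The 2 NS rats at the floor for RT1-Bb had Ciita values close to the median of 6.16.

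Across the set, 0 of the 8 genes passed an adjusted p of 0.05 with limma, where 0.197% of all RNAs tested did, and 0 of 8 did so by the methods' t-test after Benjamini-Hochberg adjustment. At an unadjusted p under 0.05 there was 1 of 8, RT1-Bb. By the study's criteria, taken here to mean more than 1.5-fold on the linear scale at an unadjusted p under 0.05, 1 of 8 was changed, again RT1-Bb and higher in MT, where 2.74% of all RNAs were changed and 1.74% were higher in MT. Since RT1-Bb was known from the study's list, that count is no independent evidence. For 0 of 8 genes did the MT and NS values separate completely, against 5.62% of all RNAs. Of the 8 log2 fold changes 3 were above 0 and 5 below, with a median of -0.25, or -0.36 without RT1-Bb, beside a median of -0.0013 over all RNAs. With the 75th percentile of each array as the scale in place of quantiles, the RNAs past the study's criteria shifted from 353 higher and 202 lower to 708 higher and 112 lower, and RT1-Bb stayed the 1 gene of the set among them. Once slide entered the fit, 0 of the 8 genes met the criteria.

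What the set shared was the order of the rats. In the MT group the order from high to low was rat 3, 1, 4, 2 and 5 for 6 of the 8 genes, RT1-Bb, RT1-Ba, RT1-Da, RT1-Db1, Cd74 and Ciita. Both DM genes also began with rats 3 and 1. In the NS group rat 10 was lowest for every gene but RT1-Bb, for which it tied with rat 7 as the highest. The order of RT1-Bb was thus that of its partner in the MT rats and another one in the NS rats.

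**Figure D2:**
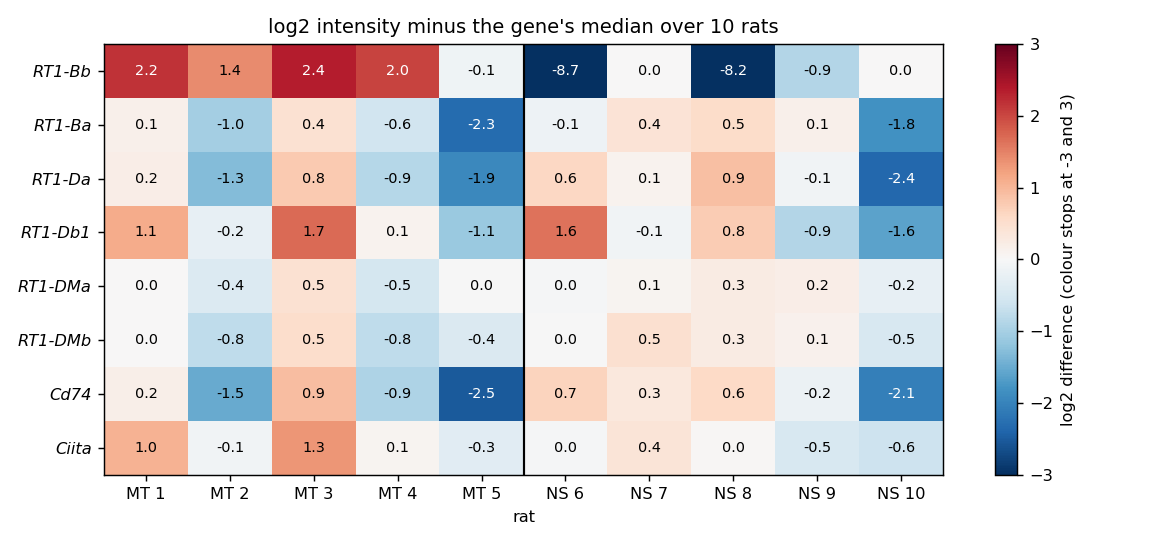
Log2 intensity of each gene minus its median over the 10 rats, by rat, with the MT rats left of the line. Blue columns at MT rats 2, 4 and 5 and NS rat 10 run through the rows of RT1-Ba, RT1-Da and Cd74, while the row of RT1-Bb is lowest at NS rats 6 and 8, by 8.75 and 8.18, where RT1-Da, RT1-Db1 and Cd74 are above their medians.

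Correlations over the 10 rats were computed for the 21 pairs among the 7 genes other than RT1-Bb, whose values fall into separate clusters and allow no pooled coefficient. P values come from two-sided permutation tests of 100000 resamples and are adjusted over the 21 pairs. The resamples moved values freely among the 10 rats, across groups and slides. Because the rats share slides, they may not be exchangeable, and these p values can be too small. Cd74 and RT1-Da were the closest pair, with a Pearson r of 0.978 (permutation p = 1e-05, the smallest the resamples can give, adjusted p = 0.00021) and a Spearman rho of 0.939 (adjusted permutation p = 0.0022). Without NS rat 10 and MT rat 5, the rats farthest from the median, r was 0.981, and with the mean of each slide removed it was 0.984. The α chain of RT1-D and the invariant chain were thus ordered alike by rat, within slides as well as across them.

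Cd74 and RT1-Ba had an r of 0.955 (adjusted permutation p = 0.00105) and a rho of 0.855 (adjusted permutation p = 0.00987), with r at 0.884 without rats 5 and 10. RT1-Ba and RT1-Da, the 2 α chains, had an r of 0.935 (adjusted permutation p = 0.00131) and a rho of 0.903 (adjusted permutation p = 0.00546), with r at 0.877 without the same rats. RT1-Db1 followed less closely, with an r of 0.840 with RT1-Da (0.661 without rats 5 and 10) and of 0.823 with Cd74 (0.744 without rats 3 and 6). Between RT1-Db1 and RT1-Ba r was 0.695 (adjusted permutation p = 0.0508) and fell to 0.319 without rats 5 and 10, so that relation rests on those rats. The 2 DM genes had an r of 0.908 with each other (adjusted permutation p = 0.00131), and 0.854 without rats 3 and 4. Ciita and Cd74 had an r of 0.633 (adjusted permutation p = 0.0777), which was 0.467 without rats 5 and 10 and 0.884 with slide means removed. At a like level of Cd74, NS rats 6 to 9 held less Ciita than MT rats 1 and 3, a contrast picked after the values were seen. MT rats 1 and 3 were on slide 1 and these NS rats on slides 2 and 3, so group and slide cannot be told apart in it. Within slides the 6 pairs among RT1-Ba, RT1-Da, RT1-Db1 and Cd74 had r between 0.812 and 0.984.

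**Figure D3:**
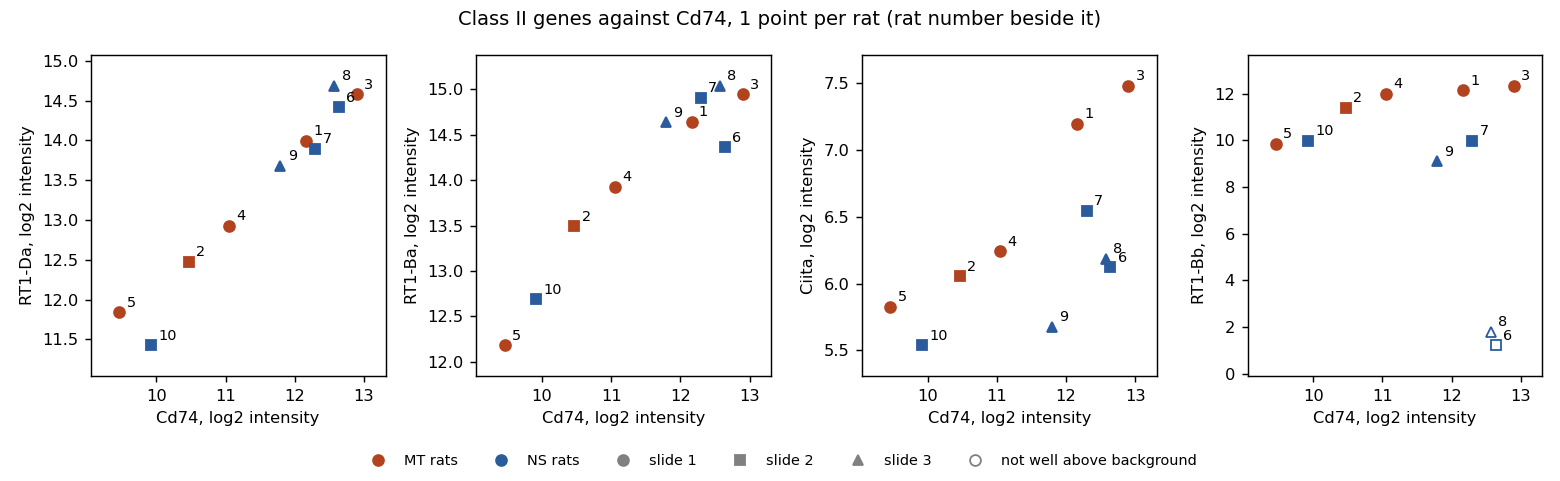
RT1-Da, RT1-Ba, Ciita and RT1-Bb against Cd74, all as log2 intensity, with 1 point per rat, the rat number beside it and the marker shape giving the slide. RT1-Da and RT1-Ba rise with Cd74 in both groups, and RT1-Bb drops to the floor in NS rats 6 and 8 at high Cd74 (12.64 and 12.57).

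The spread between rats was large beside that of other RNAs. Ordered by residual SD within the groups, Cd74 was number 136 of 20221, RT1-Da 157, RT1-Db1 161 and RT1-Ba 364. Ciita was number 1902, RT1-DMb 3135 and RT1-DMa 6200. Within slide 1, which held MT rats alone, Cd74 still spanned 3.44 on the log2 scale and RT1-Da 2.73, and within slide 2 they spanned 2.72 and 2.99.

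No tested neighbour of RT1-Bb on the chromosome met the study's criteria. In the order of the RefSeq gene table of GRCr8, 33 genes lay within 250 kb of RT1-Bb, 25 of them had a probe and 22 were tested, 16 of these outside the set. Of the 16, 0 met the study's criteria and 0 passed the adjusted p, and 10 log2 fold changes were above 0 and 6 below, with a median of 0.06. They ran from -0.44 for RT1-Ha to 0.79 for Tsbp1, a gene near the background. On the far side of RT1-Bb from RT1-Ba, RT1-DOb, a chain of the DM inhibitor, had a log2 fold change of 0.09 (SE 0.11), and Tap2, a subunit of the peptide transporter of class I, one of 0.35 (SE 0.36). RT1-Ha, Tsbp1, RT1-DOb and Tap2 were named after their values were seen.

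**Figure D4:**
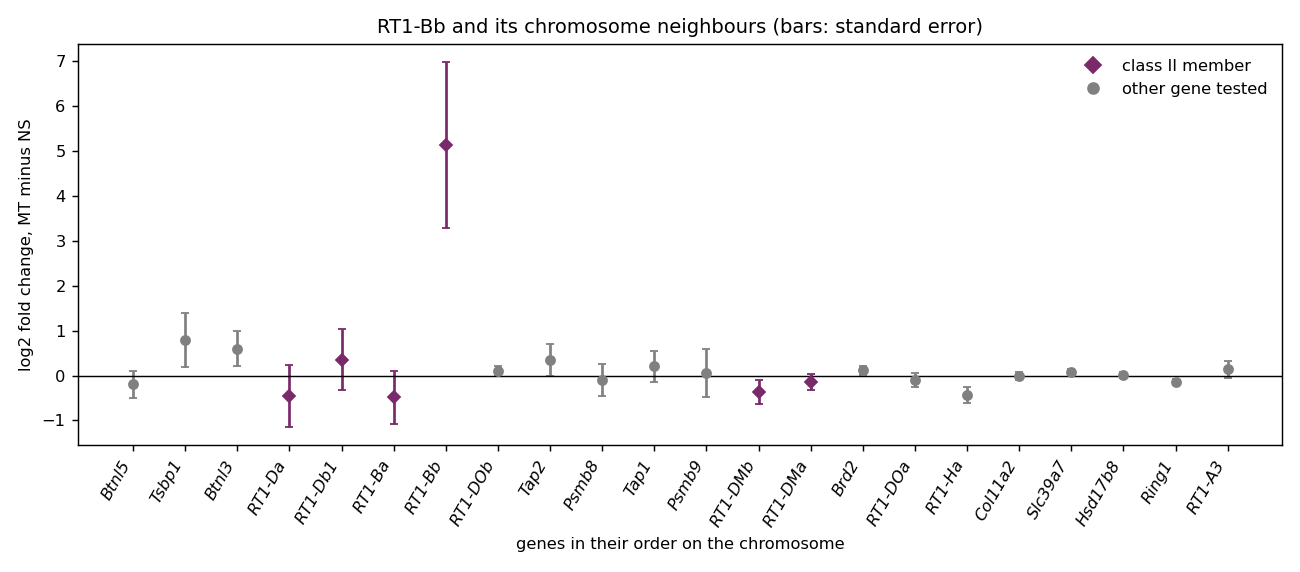
Log2 fold change of MT over NS for the 22 tested genes within 250 kb of RT1-Bb, in chromosome order, with standard errors as bars and class II genes of the set as diamonds. RT1-Bb stands at 5.13, and the 16 genes outside the set lie between -0.44 and 0.79.

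The genes around the pathway were read from lists. Napsa, Tnfsf4, Tmem119 and Cd22, named below, were already in the study's own list of changed mRNAs from the same rats. That they met the study's criteria here is thus no independent evidence. Of the 19 RNAs (17 genes) tested for regulators of class II, among them the RFX and NF-Y subunits that bind the X and Y boxes, 0 met the criteria, 14 were above 0 and 5 below, and the median log2 fold change was 0.14. Of the 14 genes of endosomal processing, a list of proteases with their inhibitor Cst3, a thiol reductase, a ubiquitin ligase and the DM inhibitor chains, 12 were below 0 and 2 above, with a median of -0.10. Among them Napsa, an aspartic protease, rose by a log2 fold change of 1.19 (SE 0.19, adjusted p = 0.0467), with 8.92, 8.76, 8.91, 9.11 and 8.70 in the MT rats and 8.32, 7.65, 7.86, 7.34 and 7.29 in the NS rats. All MT rats lay above all NS rats for Napsa, and its order of rats was not that of the class II chains. The call was lost in 9 of the 10 fits that left out 1 rat (adjusted p up to 0.184), with no filter (adjusted p = 0.0696) and by the methods' t-test (adjusted p = 0.0623 over all RNAs). It was also lost with slide in the fit as a fixed (1.01, SE 0.37, adjusted p = 1.00) or random block (adjusted p = 0.365) and without slide 3 (1.12, adjusted p = 0.149).

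Of 8 tested genes for costimulation and for receptors of class II, 4 were above 0 and 4 below, with a median of -0.17. Tnfsf4, the OX40 ligand of antigen-presenting cells, met the criteria with a log2 fold change of -0.91 (SE 0.20, adjusted p = 0.0987). Its values were 5.42, 4.98, 5.31, 5.37 and 5.43 in the MT rats and 5.94, 6.05, 6.74, 6.63 and 5.70 in the NS rats, without overlap. The log2 fold change was -0.44 with normexp background correction, under 1.5-fold, and -0.60 without slide 3, and with 75th percentile scaling it passed the adjusted p (-0.74, adjusted p = 0.0417). Of the 17 RNAs of class I presentation 0 met the criteria, with 9 above 0, 8 below and a median of 0.05.

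Markers of the cells that could carry class II were read in the same way. All 15 tested microglial genes had log2 fold changes below 0, with a median of -0.34. Gpr34, a microglial receptor, fell (-0.63, SE 0.09, adjusted p = 0.0414), and Tmem119 (-1.24, adjusted p = 0.0555) and Trem2 (-0.72, adjusted p = 0.0634) met the study's criteria. Trem2 came to -0.55 without slide 3, under 1.5-fold, and passed the adjusted p in 3 of 21 alternatives. The call of Gpr34 was lost in 8 of the 10 fits that left out 1 rat (adjusted p up to 0.179), with no filter (adjusted p = 0.0560), with slide as a fixed (-0.53, SE 0.13, adjusted p = 0.795) or random block (adjusted p = 0.243) and without slide 3 (-0.53, adjusted p = 0.119). The 4 tested genes of perivascular macrophages were above 0, with Mrc1, the mannose receptor, past the criteria (0.63, SE 0.14, adjusted p = 0.0973). Over 21 alternatives Mrc1 ran from 0.52 to 0.70. It was under 1.5-fold with normexp (0.52) and without MT rat 4 (0.55). Of 7 dendritic cell genes Clec10a, a lectin that macrophages also make, met the criteria (1.03, SE 0.32, adjusted p = 0.177). Of 6 B cell genes Cd22 (-1.05, adjusted p = 0.158) and Cd79b (-0.89, adjusted p = 0.259) met them. Cd79b was well above background on 3 MT and 2 NS arrays, and it came to -0.51 with 75th percentile scaling, -0.17 with normexp and -0.38 once slide 3 was left out, all under 1.5-fold. The class II genes other than RT1-Bb had a median log2 fold change of -0.36, close to the microglial median of -0.34. Each of them differed between the groups by less than the spread of the rats within the groups.

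By rat, several lists had their lowest and highest sums in the same rats as the class II chains. The intensities of the 11 T cell RNAs with a value on every array were added and set on a log2 scale. The sums were 11.66, 10.66, 12.37, 10.65 and 10.67 in the MT rats and 11.04, 11.64, 11.47, 11.27 and 10.41 in the NS rats. The 4 lowest rats, MT 2, 4 and 5 and NS 10, were the 4 lowest for Cd74, RT1-Da and RT1-Ba as well, and MT rat 3 was highest for T cell genes as for Cd74. No T cell gene met the study's criteria, 9 of the 11 were above background on all 10 arrays, and Cd3g had no usable spot in the MT rats. For the class I list the sums were 17.73, 17.09, 18.15, 16.99 and 16.96 in the MT rats and 17.56, 17.72, 17.57, 17.46 and 17.17 in the NS rats, again with MT 2, 4 and 5 and NS 10 lowest and MT 3 highest. The same 4 rats were lowest for the lists of class II regulators (14.68 to 14.76), endosomal processing (18.32 to 18.40) and costimulation (9.26 to 9.47), and MT 3 was highest for the regulators and costimulation. For RT1-Db1 the 4 lowest rats were MT 2 and 5 and NS 9 and 10.

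The microglial sums ran from 17.35 to 17.72 in MT and from 17.63 to 18.20 in NS, and those of the 6 B cell RNAs from 10.80 to 11.33 in MT and from 11.25 to 11.68 in NS. In both lists most NS rats lay above most MT rats. Of 9 listed Hox genes of the lumbar cord 2 were tested, and their sum was lowest in MT rat 3, at 10.30. It ran from 11.83 to 12.74 in the other MT rats and from 11.03 to 12.55 in the NS rats. The part of these lists in the spread of the class II genes was not tested.

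**Figure D5:**
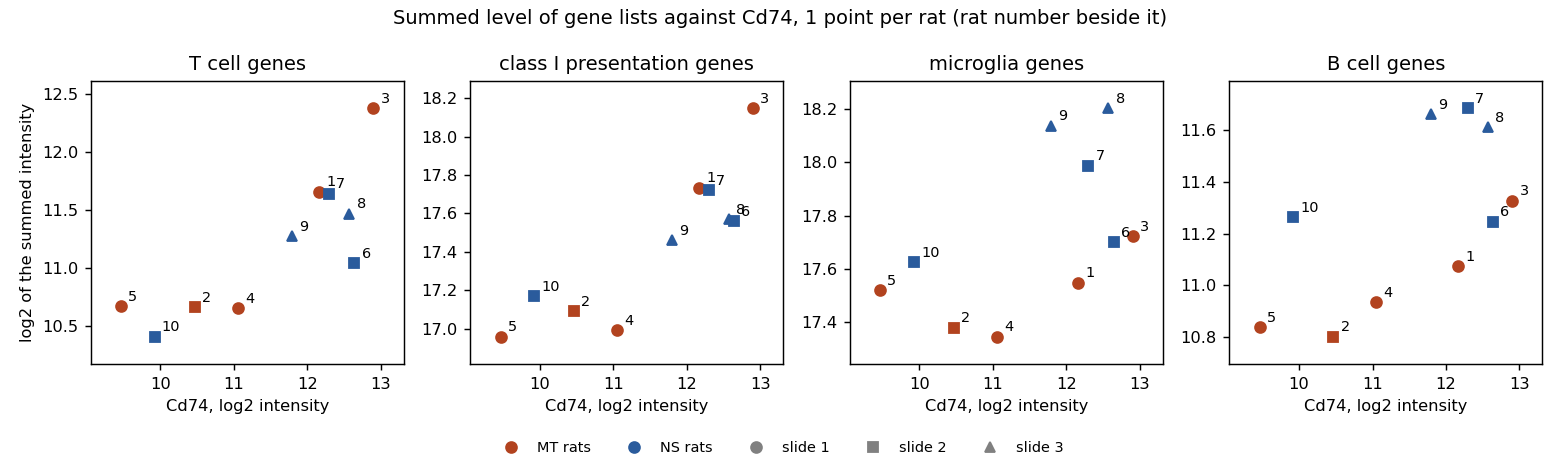
Log2 of the summed intensity of 4 gene lists against the log2 intensity of Cd74, with 1 point per rat, the rat number beside it and the marker shape giving the slide. For T cell and class I genes MT rats 2, 4 and 5 and NS rat 10 lie lowest and MT rat 3 highest, while for microglial and B cell genes NS rats tend to lie above MT rats of like Cd74.

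The mRNAs most like RT1-Bb and Cd74 over the 10 rats were sought among 12449 named mRNAs, as a description with no test, since the 10 points share slides. For RT1-Bb, whose values fall into separate clusters, the coefficient served to order the mRNAs and is no measure of a relation across rats. Those with the highest r to RT1-Bb were Asic4 (0.939), Sec31a (0.888), Camp (0.887), RT1-CE2 (0.886) and Rcn1 (0.886). Without NS rats 6 and 8 these fell to 0.183, 0.613, 0.562, 0.730 and 0.165, so the likeness of Asic4 and Rcn1 rested on the 2 low rats. Asic4 spanned 0.22 on the log2 scale over all rats, against 11.10 for RT1-Bb. RT1-CE2, a class I gene, was at 8.85 in rat 6 and 9.12 in rat 8 and between 9.66 and 10.99 in the others.

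For Cd74 the closest were Plxnb2 (0.981), Utp18 (0.951), Rfc3 (0.948), Rfc5 (0.947) and Ptprc (0.945), and without MT rat 5 and NS rat 10 r stayed between 0.899 and 0.970. Ptprc, the CD45 antigen that marks white blood cells and microglia, spanned 1.02 on the log2 scale, from 10.75 in NS rat 10 to 11.77 in NS rat 7. The other 4 spanned between 0.31 for Plxnb2 and 0.51 for Utp18, far less than the 3.44 of Cd74.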

How the data were processed

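Spots were read with Agilent Feature Extraction 11.0.1.1. The authors deposited a background-subtracted intensity for each spot, with flags, and a single table of quantile-normalized log2 values. That table correlated with the values used here at r 0.993 to 0.999 per array, across 24484 probes.

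Intensities were floored at 1, converted to log2 and quantile normalized with limma 3.58.1 under R 4.3.3, with version 1.17.8 of data.table. Spots marked as outliers were dropped, and spots and probes of an RNA were averaged. RNAs with over 50% of spots well above background on at least 5 of 10 arrays were kept, which left 20286, of which 20284 had values in both groups. MT was compared with NS by lmFit and eBayes on all RNAs, with Benjamini-Hochberg adjustment. Single values were tested by exact permutation over 252 assignments. Symbols came from RefSeq accessions (assembly GRCr8). Nothing in the labels ties arrays to separate housing or extraction batches.

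The genes and lists were chosen with earlier results of these data known. List genes were named where past the adjusted p or the study's criteria, at most 4 per list. The alternatives were 75th percentile scaling, normexp (offset 50, on median signals), the deposited table, other filters and the methods' t-test. Further ones were slide as a block (fixed, then random), slide 2 alone, no slide 3, outlier spots kept, single probes, and leaving out each rat. Normexp had been planned on mean signals, which the scanner output did not hold. The steps were tested on simulated data. Figures were drawn with matplotlib.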

Additional observations from a re-analysis of the deposited data

Results flagged for a closer look

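In 3 of the 58 groups of 5 rats checked, 1 rat lay farther from the others than Dixon's 95% critical value of 0.71 allows, which chance does in about 1 of 20 groups. RT1-Ba was at 12.69 in NS rat 10, against 14.36 to 15.04 in the other NS rats. Clec10a was at 7.73 in the same rat, against 8.84 to 9.23 in the other NS rats. Tnfsf4 was at 4.98 in MT rat 2, against 5.31 to 5.43 in the other MT rats.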

How the results depend on the processing

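Under 22 alternatives RT1-Bb stayed higher in MT, with a log2 fold change from 3.33 (normexp) to 6.02 (without NS rat 7 or without NS rat 10), and a lowest adjusted p of 0.105. It was 3.83 without NS rat 6, 3.97 without NS rat 8 and 5.80 without NS rat 9, and the filter on all 10 arrays removed it. Under the 22 alternatives run for the other genes the log2 fold change stayed below 0 for RT1-Ba, RT1-Da, RT1-DMa, RT1-DMb and Cd74. RT1-Db1 reversed to -0.21 with the slide as a fixed block and within slide 2 and to -0.039 without NS rat 10 (range with 1 rat left out -0.039 to 0.77), and Ciita to -0.015 with the fixed block and within slide 2. The number of the 8 genes past the study's criteria was 0 under the filter on all 10 arrays, both slide blocks and slide 2 alone. The count of all RNAs past the adjusted p, 40, became 143 with normexp, 66 in the deposited table, 12 with no filter, 120 with the filter on all 10 arrays, 2 when slide 3 was left out, and 0 with a fixed block for slide, a random one, or slide 2 alone, where 824, 1421 and 730 had an unadjusted p under 0.05. Leaving out 1 rat at a time gave 0 to 84. The count past the study's criteria, 555, became 201 with normexp, 912 with no filter, 349 with the filter on all 10 arrays, 323 with the fixed block, 328 with the random block, 327 within slide 2, and 426 to 867 with 1 rat left out. The cause of these shifts was not tested. No paired analysis was possible because the rats of the groups share no numbers. Each gene rests on 1 spot per array and 5 rats per group, and slide 3 held dimmer arrays.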

Other observations

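Genes of neutrophils, which make little class II, were read as well. Like RT1-Bb, S100a8 was already in the study's own list of changed mRNAs, so its result is no independent evidence. S100a8, a subunit of calprotectin, met the study's criteria with a log2 fold change of 1.44 (SE 0.35, adjusted p = 0.121 with limma) and values of 6.19, 6.64, 6.28, 6.25 and 7.46 in the MT rats and 5.18, 4.83, 5.92, 5.55 and 4.12 in the NS rats. With normexp its log2 fold change was 0.69. Csf3r, the receptor of granulocyte colony-stimulating factor, met them at 0.91 (SE 0.16, adjusted p = 0.0636 with limma), and passed the adjusted p in 4 of 21 alternatives. Of the 5 tested neutrophil genes 4 were above 0, and the summed level of the list ran from 11.72 to 12.34 in MT and from 11.49 to 12.53 in NS. Of the 8 tested erythrocyte genes 0 met the criteria, with a median of -0.01, and the summed level was lowest in MT rat 3, at 13.87. It ran from 14.46 to 15.26 in the other MT rats and from 14.30 to 15.13 in the NS rats.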
